A study of Ovis aries with 5 samples.

Results

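The probes described here measure immunoglobulin chains in dendritic cells (DC) sorted from sheep skin lymph. They were chosen by the words of their array annotation: every non-control probe whose description names immunoglobulin, an Ig heavy chain or an Ig light chain, leaving out receptors and immunoglobulin-like proteins. This gave 91 of 15008 probes, after 2 probes for a receptor of immunoglobulin E had been set aside. Heavy chains made up 63 of them, kappa light chains 4 and lambda light chains 24. Of the heavy chain probes, 59 were for variable regions, 32 of them described as mu and 27 with no isotype stated, and 4 were for the constant regions of the mu, gamma1, alpha and delta chains. Among the lambda probes 16 carry only the words light chain variable region and the symbol IGLV. These were counted as lambda by that symbol. For 15 of the 16, the longest run of bases shared with a probe named lambda was longer than with any kappa probe, and for the remaining 1 the runs were equal. The runs were 7 to 24 bases with lambda and 6 to 11 with kappa, and some differed by a single base. Fewer kappa than lambda probes were there to compare, so this is weak support for the assignment.

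The samples were CD1b+CD26+ and CD1b+CD26- lymph DC of sheep 30066 and sheep 10081, 1 array for each subset of each of the 2 animals. CD1b presents lipid antigens to T cells and CD26 is a cell surface protease. No age, sex, strain or treatment of the sheep beyond the sort is stated. Sorted cells always carried Cy3 on these 4 arrays and a common reference Cy5, with no dye swap, and 1 more array, the self-hybridisation, set the reference against itself. The sample labels describe the reference as total enriched lymph DC of other sheep, whereas the labelling protocol names RNA of cultured LP-1cl1 cells. It is called total DC here. The self-hybridisation and the arrays of sheep 30066 occupied 1 row of the slide and the arrays of sheep 10081 the other, and the effects of animal and row cannot be told apart.

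Immunoglobulins consist of paired heavy and light chains and are made by B cells and plasma cells. Each chain has a variable region, assembled from gene segments, that binds antigen, and a constant region that in the heavy chain sets the isotype. IgM is the first isotype made, IgG dominates serum, IgA serves mucosal surfaces and IgD sits mainly on the surface of naive B cells. Sheep light chains are mostly lambda, with kappa the minor type. DC do not rearrange immunoglobulin genes to make antibody, but they hold Fc receptors that take up antibody protein. In bulk RNA of sorted cells, more cells of a type and more RNA per cell cannot be told apart.

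On each array 80.8% to 88.7% of all probes had a Cy3 signal well above background, and before correction the array medians in Cy3 were 204 to 307 units, with local background at 36.5 to 39 units. The SD of the log2 ratios of sample to reference was 1.18 to 1.42 on the 4 subset arrays, where the self-hybridisation had 0.29. Probes entered the test if they were well above background in Cy3 on 2 or more of the 5 arrays. This kept 13252 probes in all and 78 of the 91 immunoglobulin probes: 50 heavy, 4 kappa and 24 lambda. The 13 that were not tested were all heavy variable regions, with Cy3 signals of 41.4 to 92.5 units. Precision is limited by having only 5 arrays. No immunoglobulin spot was saturated. The spot filters left out 3 immunoglobulin spots (AF172669, AF172674 and Z49192, on 1 array each), so their values rest on 4 arrays.

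The probes are 60 bases long and each was spotted once. All 91 carry different accessions and different sequences. The files list more than 1 accession for 5 of them, and 7 probes fall into 3 sets that list an accession in common. A run of at least 20 identical bases was shared by 68 pairs of probes and a run of at least 30 by 3 pairs, the longest being 47 bases between AF172661 and AF172680. The probes are therefore not independent measurements, since 1 transcript may bind several of them. The sequences on which the results turn are shown here 5′ to 3′, with the letters in capitals marking a run shared within a set. These runs were found by comparing the probes that stood higher in sheep 10081 with each other, after their values had been seen, so they describe those probes and test nothing.

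The first set are heavy variable probes that share 18 bases near the end of the variable region, where the joining segment lies. Z49177 lacks the exact run. AF172668, whose signals were low, is shown because it shares 25 bases with Z50036 and its ratios hardly differed between the sheep.
AF172659: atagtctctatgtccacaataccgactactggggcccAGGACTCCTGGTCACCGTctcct
Z50036: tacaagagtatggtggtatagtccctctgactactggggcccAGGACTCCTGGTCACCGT
Z49189: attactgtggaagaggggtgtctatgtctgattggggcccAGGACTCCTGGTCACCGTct
Z50034: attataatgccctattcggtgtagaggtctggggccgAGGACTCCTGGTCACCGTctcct
Z49177: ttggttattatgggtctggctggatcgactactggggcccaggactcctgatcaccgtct
AF172668: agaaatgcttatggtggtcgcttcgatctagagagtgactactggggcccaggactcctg

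The second set share 13 bases of the framework just before the third hypervariable loop, and the third set share 27 bases of the framework further upstream.
AF172677: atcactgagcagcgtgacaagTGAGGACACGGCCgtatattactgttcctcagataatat
AF172671: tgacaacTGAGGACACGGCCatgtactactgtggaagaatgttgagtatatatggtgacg
Z49166: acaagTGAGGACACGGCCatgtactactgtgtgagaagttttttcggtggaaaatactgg
AF172679: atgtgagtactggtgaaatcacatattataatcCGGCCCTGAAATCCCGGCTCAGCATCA
Z49172: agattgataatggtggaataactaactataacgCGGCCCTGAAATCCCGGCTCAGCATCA

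The 4 kappa probes are shown because their values part in both directions. Capitals mark 27 bases common to kappa-2.2 and kappa-2.3.
AF038133, kappa-1: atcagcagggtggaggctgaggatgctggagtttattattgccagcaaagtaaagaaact
AF038135, kappa-2.2: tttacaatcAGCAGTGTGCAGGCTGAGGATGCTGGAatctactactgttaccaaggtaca
AF038136, kappa-2.3: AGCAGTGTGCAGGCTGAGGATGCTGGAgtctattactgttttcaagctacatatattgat
AF038137, kappa-3: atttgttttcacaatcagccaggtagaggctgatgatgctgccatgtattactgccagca

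Of the lambda probes, the pair that stood at least 2-fold higher in sheep 10081 in both subsets share 22 bases. AF172697 also shares 24 bases with AF038142 and 22 with AF038148, whose sheep differences were 0.61 and 0.28 in CD26- and 0.82 and 0.98 in CD26+ cells.
AF172697: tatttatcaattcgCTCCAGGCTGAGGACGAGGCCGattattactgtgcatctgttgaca
AF038141: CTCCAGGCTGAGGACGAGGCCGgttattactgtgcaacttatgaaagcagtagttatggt

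Between CD26+ and CD26- cells no immunoglobulin probe passed the test. By limma, 0 of 13252 probes (0%) and 0 of the 78 immunoglobulin probes had an adjusted p under 0.05. At an unadjusted p under 0.05 it had 743 probes and 0 immunoglobulin probes, and the smallest adjusted p of an immunoglobulin probe was 0.956. With the sheep as a replicate block, 0 probes were called, with 1126 probes and 1 immunoglobulin probe at an unadjusted p under 0.05. No immunoglobulin probe was at least 2-fold higher in CD26+ than in CD26- cells in both sheep, against 2.36% of all tested probes, and none was at least 2-fold lower in both, against 2.9%. The median difference of CD26+ minus CD26- on the log2 scale was 0.03 for heavy chains (-0.02 in sheep 30066 and 0.10 in sheep 10081), 0.25 for kappa (0.01 and 0.47) and -0.05 for lambda (-0.18 and 0.13). Over all tested probes the median was -0.01. By sheep, 2 heavy chain probes differed by at least 2-fold between the subsets in sheep 30066 and 1 in sheep 10081, and no kappa or lambda probe did in either, beside 25.5% and 17.7% of all tested probes. The SD between the 2 sheep was 0.08 for the heavy chain median, 0.32 for kappa and 0.22 for lambda, so none of these medians stood clear of the spread between animals.

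In sheep 30066, 2 probes for secreted heavy chains stood higher in CD26+ than in CD26- cells. X59994, the secreted form of the IgM heavy chain, had a difference of 2.88 in sheep 30066 and 0.02 in sheep 10081. For X69797, described as the secreted IgG1 heavy chain, the differences were 1.92 and -0.30. Their mean differences of 1.45 (SE 1.67) and 0.81 (SE 2.26) were smaller than their errors, each with an adjusted p of 1 by limma. Both rested on the CD26- array of sheep 30066, where these probes were lowest. Without that array the differences of X59994 and X69797 turned to -0.82 and -2.02. These values set CD26+ cells of both sheep against CD26- cells of sheep 10081 alone. The difference between the sheep therefore enters them, and they do not give a reversed subset difference within a sheep. AF024645, the IgA heavy chain, had the lowest mean difference of the heavy probes, -0.53 (SE 0.95), with -0.67 in sheep 30066 and -0.38 in sheep 10081. It stood at 0.32 when no spot was kept out of the background model.

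Of the light chains, AF038136 (kappa-2.3) had the highest kappa difference, 0.44 (SE 1.42), at 0.00 in sheep 30066 and 0.89 in sheep 10081. The lowest was AF038137 (kappa-3), -0.06 (SE 0.64). Among lambda probes AF172695 had the highest difference, 0.24 (SE 0.37), and AF172694, which also had the highest mean log2 intensity of the lambda probes over both dyes and all arrays, the lowest, -0.41 (SE 0.41). For AF172694 the difference had the same sign in both sheep, -0.49 and -0.33. In sheep 30066, 21 of 24 lambda probes were lower in CD26+ cells, while in sheep 10081 17 of 24 were higher. Over all tested probes with a value, 6761 of 13169 were lower in sheep 30066 and 6605 of 13019 were higher in sheep 10081.

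The largest differences among these probes lay between the 2 sheep, within each subset. Sheep 10081 stood at least 2-fold above sheep 30066 in both subsets for 17 of 78 immunoglobulin probes, 21.8%, where 6.24% of all tested probes did. By chain these were 13 of 50 heavy, 2 of 4 kappa and 2 of 24 lambda probes. The reverse held for 1 probe, AF038137, against 2.7% of all tested probes. Each side is 1 animal, so the difference between the sheep has no replicate and no test, and it coincides with the slide row. The same 4 arrays give both the subset and the sheep values, and the sorted cells were in Cy3 on all of them, so that an offset between dyes that is common to the arrays cancels in a difference of arrays. Of the tested probes, 7 were not well above background on either array of sheep 30066, and 3 of these were among the 17. The remaining 14 were measured in both sheep. Of the 7 dim probes, 4 were dim on the self-hybridisation too, so they passed the brightness filter through sheep 10081 alone. The others of the 7 also needed an array of sheep 10081 to reach the 2 arrays that the filter asks for. All 3 dim probes among the 17 (AF172677, AF172671 and Z49166) thus passed only with sheep 10081. Their place among the 17 follows in part from the filter.

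Of the constant regions, those of IgG1, secreted IgM and IgA stood higher in sheep 10081 and that of membrane IgD, whose signals were low, did not. X69797, the probe described as IgG1, is listed with 2 accessions, and whether it binds IgG1 alone was not tested. Its Cy3 signals were 357 units in CD26- and 1244 units in CD26+ cells of sheep 30066, and 14394 and 10085 units in sheep 10081. On the self-hybridisation it had 1387 units, and the reference in Cy5 stayed between 2291 and 2941 units on all arrays. Both arrays of sheep 10081 thus lay above every other array. The log2 ratios were -1.98 (CD26-) and -0.06 (CD26+) in sheep 30066, 3.68 and 3.38 in sheep 10081, and 0.11 on the self-hybridisation, so that sheep 10081 exceeded sheep 30066 by 5.66 in CD26- and 3.44 in CD26+ cells.

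The IgM probe X59994 gave Cy3 signals of 151 and 1182 units in CD26- and CD26+ cells of sheep 30066, 3820 and 3622 units in sheep 10081 and 1839 units on the self-hybridisation. Its log2 ratios were -3.72 and -0.85 in sheep 30066, 0.81 and 0.84 in sheep 10081 and -0.11 on the self-hybridisation. It was therefore below total DC in sheep 30066 and above it in sheep 10081. The sheep differed by 4.54 in CD26- and 1.68 in CD26+ cells.

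For AF024645, the IgA heavy chain, the log2 ratios were 1.12 (CD26-) and 0.45 (CD26+) in sheep 30066, 2.83 and 2.45 in sheep 10081 and 0.32 on the self-hybridisation. Sheep 10081 exceeded sheep 30066 by 1.70 in CD26- and 1.99 in CD26+ cells, and all 4 sorted samples lay above the self-hybridisation. AF515673, the membrane form of the IgD heavy chain, had ratios of 0.05 and 0.06 in sheep 30066 and -0.09 and -0.24 in sheep 10081, against 0.24 on the self-hybridisation. In this ratio sheep 10081 minus sheep 30066 was -0.14 in CD26- and -0.31 in CD26+ cells, a small difference in the opposite direction. Its Cy3 signals in CD26- and CD26+ cells were low, 76.4 and 77.7 units in sheep 30066 and 85.9 and 97.2 units in sheep 10081. They were thus not lower in sheep 10081, while the Cy5 signals were 101 and 108 units against 118 and 143 units. At such low signals the probe says little about IgD.

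Among heavy variable regions, 10 of 46 tested probes stood at least 2-fold higher in sheep 10081 in both subsets, 6 of 25 described as mu and 4 of 21 with no isotype stated. AF172659 had the largest difference among those measured in both sheep, with log2 ratios of -0.42 (CD26-) and -0.27 (CD26+) in sheep 30066, 3.42 and 3.32 in sheep 10081 and 0.20 on the self-hybridisation. Its Cy3 signal was 102 and 119.8 units in sheep 30066 and 1787 and 1412 units in sheep 10081. The sheep did not overlap, and CD26+ minus CD26- was 0.15 in sheep 30066 and -0.10 in sheep 10081. AF172677, AF172671 and Z49166 were not well above background in sheep 30066. In the Cy3 channel alone they were at least 15.4-fold, at least 7.84-fold and at least 5.52-fold higher in sheep 10081. The log2 ratio, which also divides by Cy5, differed between the sheep for AF172677 by 3.58 in CD26- and 3.98 in CD26+ cells, a mean slightly under that Cy3 bound. Its Cy5 signal was 415 and 493 units on the arrays of sheep 10081 and 311 and 335 units on those of sheep 30066. These bounds set the mean of sheep 10081 against the higher of the probe's own signal and the lowest signal of a probe well above background, per array.

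The median difference between the sheep over all tested heavy chains was -0.10 in CD26- and 0.26 in CD26+ cells, beside 0.00 and 0.01 over all tested probes. Most variable region probes thus had ratios near 0 while a minority stood far above it. Several of those near 0 had low signals, such as AF172675 with 75.3 to 79.7 Cy3 units over the arrays. Their ratios say little about a difference between the sheep. Others near 0 were brighter. Z49164, a mu variable region with the highest mean log2 intensity of the heavy chain probes over both dyes and all 5 arrays, had log2 ratios of 0.83 and 0.23 in sheep 30066, 0.42 and 0.60 in sheep 10081 and 0.72 on the self-hybridisation. Its sheep differed by -0.41 in CD26- and 0.38 in CD26+ cells, in opposite directions.

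Among the printed heavy variable sequences, the run of 18 bases occurred in 4 of all 15008 probes (0.0267%, both strands searched), the run of 13 bases in 3 (0.02%) and the run of 27 bases in 2 (0.0133%), all of them immunoglobulin heavy chains. The 9 probes that hold 1 of these runs had mean sheep differences of 1.29 to 3.78, 3 of them being dim in sheep 30066. Of the other 37 tested heavy variable probes, 35 had values in both sheep and both subsets, from -0.57 to 2.04 with a median of -0.02, and 1 of these 35, Z49177, was at least 2-fold higher in both subsets. Since the runs were taken from the probes that were higher, this split is fixed in part by how they were found. AF172668, which shares 25 bases with Z50036 but lacks the run of 18, had sheep differences of 0.00 in CD26- and -0.04 in CD26+ cells, where Z50036 had 2.69 and 2.43. In CD26- and CD26+ cells AF172668 had low Cy3 signals. They were 70.0 and 73.6 units in sheep 30066 and 104 and 91.5 units in sheep 10081. At such signals its ratios say little about a difference between the sheep.

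The kappa probes parted by subgroup. Their median log2 ratio was 0.11 and 0.14 in CD26- and CD26+ cells of sheep 30066, 1.58 and 2.25 in sheep 10081 and 0.43 on the self-hybridisation. AF038135 (kappa-2.2) had log2 ratios of 0.18 (CD26-) and 0.27 (CD26+) in sheep 30066, 3.99 and 4.48 in sheep 10081 and 0.34 on the self-hybridisation, and Cy3 signals of 169 and 146 units against 2576 and 3968 units. Its Cy5 signal, from the same reference on all arrays, was 187 to 219 units on the arrays of sheep 30066 and the self-hybridisation and 281 and 374 units on those of sheep 10081. The part of this in the ratio was not tested. AF038136 (kappa-2.3) had ratios of -0.22 and -0.23 in sheep 30066, 2.18 and 3.07 in sheep 10081 and 0.07 on the self-hybridisation. Both probes were thus near total DC in sheep 30066 and far above it in sheep 10081.

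AF038133 (kappa-1), the kappa probe with the highest mean log2 intensity over both dyes and all 5 arrays, had ratios of 0.03 and 0.01 in sheep 30066 and 0.98 and 1.44 in sheep 10081, with 0.53 on the self-hybridisation. The sheep differed by 0.95 in CD26- cells, just under 2-fold, and by 1.43 in CD26+ cells. AF038137 (kappa-3) went the other way, with ratios of 0.62 and 0.64 in sheep 30066, -0.42 and -0.58 in sheep 10081 and 0.71 on the self-hybridisation. Its sheep difference was -1.04 in CD26- and -1.22 in CD26+ cells, and the sheep did not overlap.

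For the lambda probes the differences between the sheep ran from -0.72 to 1.18 in CD26- and from -0.76 to 2.02 in CD26+ cells. AF172697 had ratios of -1.38 (CD26-) and -2.13 (CD26+) in sheep 30066, -0.20 and -0.11 in sheep 10081 and 0.52 on the self-hybridisation. AF038141 had -1.30 and -1.83 in sheep 30066 and -0.20 and -0.10 in sheep 10081, with 0.09 on the self-hybridisation. In sheep 30066, 6 lambda probes lay at least 2-fold below the reference in both subsets (AF038141, AF038142, AF038148, AF172697, AF172701 and AF172702), where 8.06% of all tested probes did. In sheep 10081 2 lambda probes did, AF172701 and AF172703, where 11.2% of all tested probes did. AF172694 had 0.98 and 0.49 in sheep 30066 and 0.42 and 0.09 in sheep 10081, with 0.96 on the self-hybridisation. The nearest values of the sheep, 0.49 and 0.42, lay close together, and each value is 1 subset of 1 animal. AF172695 ranged from 0.50 to 0.99, with 0.66 on the self-hybridisation, and for this probe the sheep overlapped. AY734682, a lambda constant segment annotated as nonfunctional, had 0.91 and 0.68 in sheep 30066 and 0.19 and 0.39 in sheep 10081.

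Against total DC, the self-hybridisation gives the level that equal samples reach. It was not 0 for the light chains: the median log2 ratio there was 0.47 for lambda and 0.43 for kappa, beside 0.05 for heavy chains and 0.00 for all tested probes, and 22 of 24 lambda probes were above 0. Of all tested probes with a value, 6532 of 13193 were above 0 on the self-hybridisation. Relative to it, the median in CD26+ cells was 0.05 for heavy chains (-0.07 in sheep 30066 and 0.10 in sheep 10081), 0.77 for kappa (-0.18 and 1.95) and -0.61 for lambda (-0.69 and -0.49). In CD26- cells the medians were -0.02 (-0.03 and -0.05), 0.44 (-0.23 and 1.28) and -0.60 (-0.45 and -0.54). Over all tested probes they were -0.02 and -0.03. Kappa medians changed sign between the sheep, and with log ratios scaled between arrays they stood at -0.199 in CD26+ and -0.353 in CD26- cells. Lambda medians lay below the self-hybridisation in both sheep and both subsets, with 22 of 24 probes lower in CD26+ and 21 of 24 in CD26- cells. Of all tested probes with a value, 6769 of 13193 were lower in CD26+ and 6869 of 13193 in CD26- cells. Both subsets share the 1 self-hybridisation, and as plain ratios to the reference the lambda medians of the subset arrays lay between -0.20 and -0.07. The lambda shift therefore rests on an array without replicate.

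limma called 0 of 13252 probes (0%) in CD26+ and 0 (0%) in CD26- cells against total DC, and 0 immunoglobulin probes. Unadjusted p under 0.05 was reached by 1494 and 1402 probes and by 1 immunoglobulin probe in each, AF172701, a lambda variable region. It stood at -1.42 (SE 0.43) in CD26+ cells with an adjusted p of 0.377 by limma, and at -1.49 (SE 0.43) in CD26- cells with an adjusted p of 0.4. With the replicate block 0 probes were called; 7 of 78 immunoglobulin probes (8.97%) in each comparison reached an unadjusted p under 0.05, beside 2324 (17.5%) and 2091 (15.8%) of all tested probes. At least 2-fold above the self-hybridisation in both sheep were 0 immunoglobulin probes in CD26+ and 0 in CD26- cells, against 9.72% and 10% of all tested probes. At least 2-fold below it in both sheep were 1 in CD26+ cells and 2 in CD26- cells, all lambda, against 8.64% and 7.41%.

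Heavy and light chain probes of 1 deposit series carry clone numbers, and 15 numbers occur on both a heavy and a light chain probe. The heavy probe was too dim to be tested for 3 of these numbers, and for 4 more it was not well above background on either array of sheep 30066. Clone 139, measured in both sheep, had a mean sheep difference of 2.61 for the heavy probe AF172679 and 0.91 for the light probe AF172702. For clones 116 and 58, whose heavy probes AF172677 and AF172671 have only the bounds given above, the light probes AF172683 and AF172697 stood at 0.74 and 1.60. These 3 clones were picked for their high heavy probes, and of their light probes only AF172697 was at least 2-fold higher in both subsets. For the other clones, heavy probes with a value, dim ones included, ran from -0.26 (clone 96) to 0.67 (clone 34). The heavy probe of clone 34 was not well above background on either array of sheep 30066, so its value is uncertain. Light probes of these other clones ran from -0.71 (clone 35) to 0.65 (clone 70, heavy -0.08). Whether the chains of a clone move together was not tested.

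Markers of other cells were few among the probes with a gene name. Of 18 B cell markers 2 were matched, CD40, a receptor that DC carry too, and CR2, the complement receptor of B cells. The log2 ratios of CR2 were -0.12 to 0.05 on the subset arrays, and it was well above background only on the arrays of sheep 10081. CD40 ranged from 0.23 to 1.05. None of 14 plasma cell markers was matched, and the other B cell genes were not analysed here, so that the part of B cells or plasma cells in the sheep difference was not tested. HSPA5, a chaperone that folds antibody in secreting cells, was the 1 of 18 secretion genes matched. It stood at -0.48 on the self-hybridisation, at -0.64 and -0.98 in CD26- and CD26+ cells of sheep 30066 and at -2.02 and -2.24 in sheep 10081.

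T cell genes moved in part with the sheep. Of 16 listed, 6 were tested, and their median was 0.56 and -0.04 in CD26- and CD26+ cells of sheep 30066 and 1.21 and 1.61 in sheep 10081, within ranges of -1.92 to 2.12 and -2.53 to 4.11. CD3D, a chain of the T cell receptor complex, had ratios of 1.41 and 0.10 in sheep 30066 and 4.11 and 3.18 in sheep 10081. CD247, another chain of that complex, had -1.92 and -0.30 against -2.53 and -1.44. The part of T cells in the immunoglobulin values was not tested. FCER1A, the IgE-binding chain of the IgE receptor set aside above, had -1.66 (CD26-) and -3.01 (CD26+) in sheep 30066 and -1.37 and -3.29 in sheep 10081, lower in CD26+ cells of both sheep. In CD26+ cells of sheep 30066 FCER1A was not well above background, so the size of the difference there is uncertain. Of the DC markers CD86, a costimulatory ligand, was measured on all arrays. Its ratios were -1.73 (CD26-) and -0.84 (CD26+) in sheep 30066 and -1.91 and -0.58 in sheep 10081, with -0.08 on the self-hybridisation. The CD1B probe was well above background on 1 of 5 arrays, although the cells were sorted on CD1b.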

How the data were processed

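Total RNA of sheep lymph dendritic cells (DC) was measured on 5 Agilent 2-colour arrays. The members and marker lists were chosen with earlier results of these data known. The deposited scanner files give linear spot intensity and local background; per the file headers, the software was Feature Extraction 9.5.3.1. They also give a log10 ratio of processed signals, per the file headers, and a deposited log2 table repeats that ratio with its sign turned; both served as 1 alternative. No further processing by the submitters is given in the sources used here.

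Mean signals were background-corrected with normexp (offset 50). Spots with a local background over 5 times the array's median were kept out of that model and of the values. Loess followed within each array (limma 3.58.1, R 4.3.3). Control and outlier-flagged spots were left out. Values are log2 of Cy3 over Cy5. limma fitted 3 group means to the 13252 probes that passed the brightness filter (2 or more arrays), with Benjamini-Hochberg adjustment over all of them and calls under 0.05. The labels' animal numbers pair the subsets (correlation of deviations 0.33, with only 2 pairs). The method was tested on simulated data.

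Named probes were the brightest (mean log2 intensity over both dyes and all arrays) of each chain and each heavy chain isotype, those with the highest and lowest CD26+ minus CD26- difference in each chain, and any called member. Probes that differed between the sheep, and probes shown for their sequence, were singled out after values were seen. Symbols were found for 1033 probes through the files and RefSeq's sheep gene table (ARS-UI_Ramb_v3.0), used for names only. No genome was used, so positions are not given.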

Additional observations from a re-analysis of the deposited data

How the results depend on the processing

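limma called 0 probes in each of the 3 comparisons under every setting run, including the replicate block and each left-out array. Between the subsets the replicate block left 0 called, with 1126 probes at an unadjusted p under 0.05. Immunoglobulin probes at least 2-fold higher in sheep 10081 in both subsets numbered 14 to 18 under the other 7 settings, of which 14 to 17 were among the 17, beside 2.74% to 6.35% of all probes. That check was chosen after seeing the data. No immunoglobulin probe was 2-fold apart between the subsets in both sheep under any of them.

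Scaling between arrays, which gives the self-hybridisation the spread of the other arrays, put lambda at -1.37 (CD26+) and -1.38 (CD26-) against total DC, and CD26- heavy chains at -0.091. It turned the kappa medians from 0.773 to -0.199 (CD26+) and from 0.442 to -0.353 (CD26-). The background model on all spots put lambda at -0.415 and -0.347 and CD26- heavy chains at 0.009. Without the probes named only IGLV, an alternative chosen after seeing the data, lambda stood at -0.347 and -0.328. Median centring in place of loess put the median of all probes at -0.258 and -0.229, from -0.024 and -0.032, and that of heavy chains at -0.198 and -0.283. CD26- heavy chains stood at -0.036 with scanner signals and -0.071 with probes well above background on all arrays.

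Directions that reversed were of values that had not been called, and the cause was not tested. On all spots AF024645 between subsets stood at 0.318 and AF172695 (CD26- against total DC) at -0.015. The latter was -0.059 with median centring, -0.059 with scanner signals and -1.306 with scaling, and -1.142 in CD26+ cells with scaling. AF038133 (CD26+) stood at -0.043 with median centring and -1.044 with scaling. X59994 (CD26+) stood at -0.185 with median centring and -0.043 with scanner signals.

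Leaving out 1 array in turn, the CD26+ minus CD26- median ran from -0.02 to 0.225 for heavy chains and from -0.85 to 1.512 for kappa. Without a subset array, 1 sheep is missing from that subset, so the difference between the sheep enters all the ranges given here. The CD26- median against total DC ran from -0.051 to -0.016 for heavy chains and from -0.596 to -0.448 for lambda. Among single probes, differences between the subsets ran from -0.494 to 0.93 for AF038133, -1.52 to 0.471 for AF024645, -0.227 to 0.082 for AF515673, -2.022 to 3.635 for X69797, -0.818 to 3.717 for X59994, -1.206 to 2.094 for AF038136, -0.007 to 0.483 for AF172695 and -0.674 to 0.549 for AF038137. CD26+ against total DC ran from -0.518 to 0.906 for AF038133, -0.176 to 3.264 for X69797, -0.733 to 0.95 for X59994 and -0.299 to 3.002 for AF038136. CD26- against total DC ran from -0.296 to 0.114 for Z49164, -0.501 to 0.453 for AF038133, -0.543 to 0.015 for AF172694, -2.091 to 3.566 for X69797, -3.608 to 0.927 for X59994, -0.296 to 2.11 for AF038136 and -0.154 to 0.336 for AF172695.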
